A study of Mus musculus with 4 samples.

Results

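The genes of the epithelial to mesenchymal switch were followed through 3 stages of mouse gastrulation. They are Cdh1, Epcam and Cldn6, which hold epithelia together, Cdh2, Vim and Fn1, which are typical of mesenchyme, and the transcription factors Snai1, Zeb1 and Zeb2. They were chosen by name, and these 9 genes were found among the 19616 genes of the series, in all 3 libraries of 16639, 16341 and 18640 genes. The study asked how heart progenitors arise from the primitive streak. Embryos of the genotype TnEGP-CreERT2/+; R26Rtdtomato/R26Rtdtomato were dissociated, and single cells were measured with the Chromium 3′ droplet assay, in which a unique molecular identifier (UMI) marks each captured transcript. The mid to late streak library (MS-LS) came from embryos at E6+21h after tamoxifen at E6+5h, the bud stage library (OB-EB) from E7+3h after tamoxifen at E6+21h, and the early headfold library (EHF) from E7+14h after tamoxifen at E7+7h. Tamoxifen was given by oral gavage at 0.08 mg/bw in each case. All embryos of the 3 libraries therefore carried 1 T allele with a nuclear GFP and a tamoxifen-dependent Cre, which is made only where T is expressed, as well as the tdTomato reporter, and no library without these alleles or without tamoxifen was analysed. The embryos of a stage were pooled and their cells were not assigned to embryos. Stage and library cannot be told apart, and no test between conditions was possible.

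During gastrulation, epiblast cells move into the primitive streak, loosen their contacts, and leave it as mesenchymal mesoderm or re-insert into an epithelium as definitive endoderm. Cdh1 encodes E-cadherin, the adhesion molecule of the epiblast, and Cdh2 encodes N-cadherin, which takes its place in many mesodermal cells. Snai1 is a zinc finger repressor of Cdh1 that gastrulating mouse embryos need to form normal mesoderm. Zeb1 and Zeb2 are related repressors. All of them bind E-boxes of the form CACCTG.

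The members lie on several chromosomes of GRCm38 in the GENCODE annotation. Fn1 spans chr1:71585520-71653200 on the minus strand, Vim chr2:13573927-13582826 on the plus strand and Zeb2 chr2:44983632-45117395 on the minus strand. Snai1 lies at chr2:167538195-167542814, Cdh1 at chr8:106603351-106670246, Cldn6 at chr17:23679249-23682446 and Epcam at chr17:87635979-87651129, all on the plus strand. Promoters from RefSeq (GRCm38.p6, 250 bases before to 50 bases after the start of transcription) are shown for Epcam and Cldn6, which were both lower in nascent mesoderm of MS-LS and OB-EB, and for Snai1, which was higher there. Capitals mark CACCTG, or CAGGTG where the box lies on the other strand. The windows are chr17:87635729-87636028 for Epcam, chr17:23679115-23679414 for Cldn6 and chr2:167537945-167538244 for Snai1, all on the plus strand.
Epcam: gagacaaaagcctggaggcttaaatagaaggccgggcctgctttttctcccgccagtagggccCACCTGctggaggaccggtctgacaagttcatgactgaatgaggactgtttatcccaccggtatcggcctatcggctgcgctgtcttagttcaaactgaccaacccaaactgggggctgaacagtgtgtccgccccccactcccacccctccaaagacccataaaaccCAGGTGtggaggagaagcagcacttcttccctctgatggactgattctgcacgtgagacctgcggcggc
Cldn6: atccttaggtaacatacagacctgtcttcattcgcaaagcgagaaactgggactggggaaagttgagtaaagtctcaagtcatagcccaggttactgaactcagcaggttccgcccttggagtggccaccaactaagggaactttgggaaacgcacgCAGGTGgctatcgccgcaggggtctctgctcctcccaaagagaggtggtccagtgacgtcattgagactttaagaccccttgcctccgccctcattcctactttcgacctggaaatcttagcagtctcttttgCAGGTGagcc
Snai1: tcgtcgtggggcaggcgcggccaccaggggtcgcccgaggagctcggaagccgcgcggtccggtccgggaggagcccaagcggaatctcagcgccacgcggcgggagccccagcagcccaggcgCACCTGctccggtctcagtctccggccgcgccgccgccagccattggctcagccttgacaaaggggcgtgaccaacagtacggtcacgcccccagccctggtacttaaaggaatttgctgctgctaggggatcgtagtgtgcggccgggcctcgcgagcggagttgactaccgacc
The boxes start at −187 and −19 in the Epcam window, at −93 and 40 in that of Cldn6 and at −126 in that of Snai1, counted from the start of transcription. No box was found in the window of Vim or in the 4 windows of Zeb2. Cdh1, Cdh2, Fn1 and Zeb1 had no entry in the promoter table. The letters occur in 6640 of 32851 promoters, or 20.2%, on either strand, so a match describes these windows and does not show binding.

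The libraries held 3635, 3994 and 3494 cells with 17966956, 12181436 and 20376539 UMIs and medians of 4251, 2620.5 and 5584 UMIs per cell. They shared 12 to 18 cell barcodes. Cells were clustered without the members and the listed genes and were named from marker genes, which gave 17, 15 and 30 clusters, of which 3, 2 and 7, with 596, 350 and 1021 cells, matched no cell type clearly enough and stayed unnamed. All class names below mean "like" that cell type in its markers. Since T and Mesp1 are among the markers, their levels show how the classes were named. In MS-LS they were 5.88 and 7.23 counts per 1000000 UMIs (CPM) in epiblast, 123 and 123 CPM in primitive streak and 66.0 and 321 CPM in nascent mesoderm. Levels were taken from the UMI sum of each class, with exact Poisson 95% intervals in brackets, and ratios are log2 ratios of these levels with exact binomial 95% intervals. Both cover counting error only. Because the assay reads the 3′ end, levels were compared between classes and not between genes.

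Cdh1 was high in the epiblast, node and ectoderm classes and in definitive and Exe endoderm, and low in every mesodermal class of the 3 libraries and in parietal endoderm. In MS-LS it stood at 116 CPM [106, 126] in the 909 epiblast cells, 110 CPM [94.2, 127] in the 215 primitive streak cells and 17.8 CPM [11.7, 25.9] in the 418 nascent mesoderm cells. The level of the streak overlapped that of the epiblast, and the mesoderm lay far below both. In OB-EB it was 76.0 CPM [67.6, 85.0] in epiblast and 20.8 CPM [16.2, 26.4] in nascent mesoderm. In EHF it was 120 CPM [102, 140] in caudal epiblast and 12.3 CPM [5.63, 23.4] in presomitic and caudal mesoderm. The log2 ratio of mesoderm over epiblast was −2.70 [−3.31, −2.14], −1.87 [−2.26, −1.48] and −3.28 [−4.44, −2.32] at the 3 stages. The OB-EB value depended on the clusters, and was −3.43 with a lower and −3.68 with a higher clustering resolution. Ordered by level, the classes fell into a high and a low group. In MS-LS the level was 97.1 to 180 CPM in the epiblast, streak, node, endoderm and extraembryonic (Exe) classes, and 8.53 to 17.8 CPM in nascent mesoderm and haemato-endothelial progenitors. Of the 7 pairs of neighbours in this order, only definitive endoderm and nascent mesoderm differed beyond their counting intervals. In OB-EB, again, 1 of 7 pairs did so, epiblast and nascent mesoderm. In EHF, 2 of 13 did, and the lowest level was 2.65 CPM [0.321, 9.58] in cardiac mesoderm, from 2 UMIs.

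Epcam, a homophilic adhesion molecule of epithelial cells, followed Cdh1. Its level was 298 CPM [282, 315] in epiblast, 261 CPM [237, 286] in primitive streak and 73.3 CPM [60.3, 88.2] in nascent mesoderm of MS-LS. In OB-EB it was 238 CPM [223, 254] in epiblast and 73.7 CPM [64.7, 83.5] in nascent mesoderm, and in EHF 150 CPM [130, 173] in caudal epiblast and 28.7 CPM [17.8, 43.9] in presomitic and caudal mesoderm. Mesoderm was lower at each stage, with log2 ratios of −2.02 [−2.32, −1.74], −1.69 [−1.90, −1.49] and −2.39 [−3.11, −1.74]. These were smaller in size than the ratios of Cdh1, but the intervals of the 2 genes overlapped at each stage. Lateral plate and Exe mesoderm of OB-EB was lower still, at 17.4 CPM [10.1, 27.8], and its log2 ratio to nascent mesoderm was −2.09 [−2.89, −1.38]. The same ratio was −2.35 [−4.27, −0.93] for Cdh1, which had 4 UMIs in that class.

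Cldn6, a tight junction claudin, had its highest level in Exe endoderm in MS-LS and OB-EB and in definitive endoderm in EHF, and its epiblast level differed between stages. It stood at 86.1 CPM [77.7, 95.2] in epiblast of MS-LS, 49.2 CPM [42.5, 56.6] in epiblast of OB-EB and 13.0 CPM [7.56, 20.8] in caudal epiblast of EHF. Mesoderm had 11.9 CPM [7.04, 18.8], 12.7 CPM [9.14, 17.1] and 10.9 CPM [4.72, 21.6]. The mesodermal levels were alike at the 3 stages while those of the epiblast were not, and the log2 ratios were −2.86 [−3.63, −2.18], −1.96 [−2.47, −1.47] and −0.25 [−1.67, 1.04]. In EHF, Cldn6 therefore did not separate the caudal epiblast from its mesoderm, although 500 CPM [435, 572] was found in definitive endoderm and 378 CPM [294, 479] in node and notochord. The class compared is not the same cell type at the 3 stages, and stage, class and library cannot be told apart here.

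**Figure D1:**
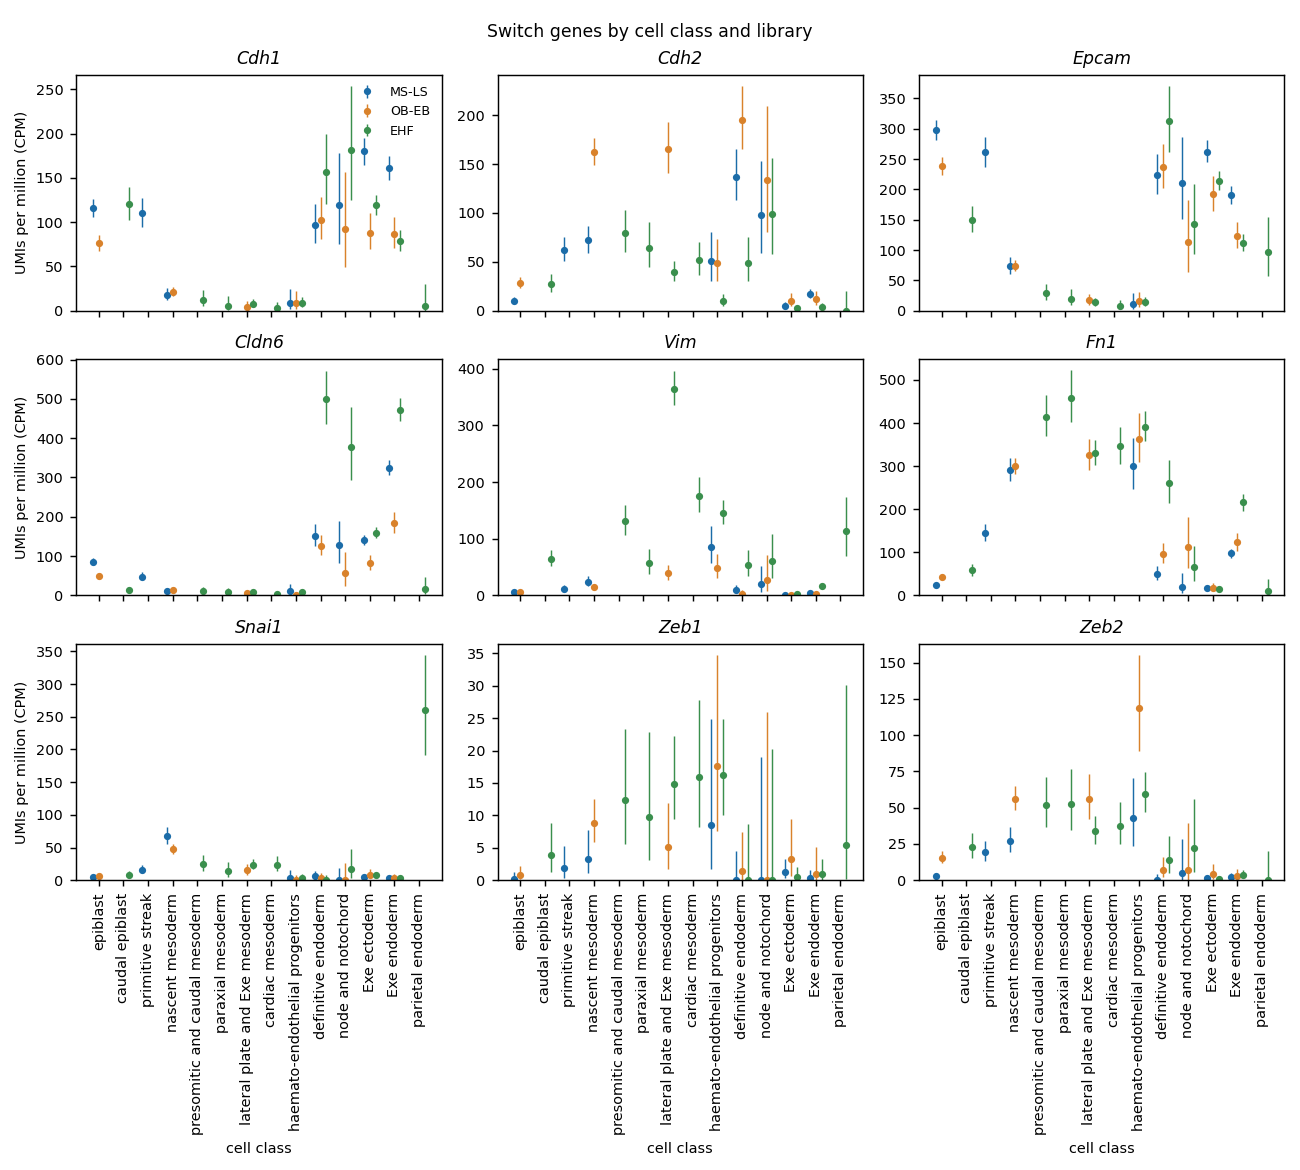
Levels of the 9 genes in counts per 1000000 UMIs (CPM, vertical axes, each with its own scale) in named cell classes (horizontal axis, without erythroid, neuroectoderm and surface ectoderm cells), with 1 point per class and library and exact Poisson 95% intervals as bars. Cdh1, Epcam and Cldn6 are low in all mesodermal classes, Fn1 and Zeb2 are high there, and Cdh2 is also high in definitive endoderm, at 137 CPM in MS-LS and 195 CPM in OB-EB.

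Cdh2 was higher in nascent, and in presomitic and caudal, mesoderm than in epiblast, but was not limited to mesoderm. Haemato-endothelial progenitors of EHF held less of it than caudal epiblast, 10.0 CPM from 13 UMIs against 27.5 CPM. In MS-LS it stood at 10.2 CPM [7.42, 13.6] in epiblast, 62.6 CPM [51.1, 75.8] in primitive streak and 72.0 CPM [59.1, 86.8] in nascent mesoderm. In these classes the streak was thus already at the mesodermal level, where Cdh1 was still at the epiblast level. With the cell names of the study's supplement, Cdh2 was at 49.1 CPM [40.0, 59.5] in streak and 125 CPM [109, 141] in nascent mesoderm. In OB-EB it was 28.5 CPM [23.5, 34.3] in epiblast and 162 CPM [149, 177] in nascent mesoderm, and in EHF 27.5 CPM [19.2, 38.0] in caudal epiblast and 79.3 CPM [60.2, 103] in presomitic and caudal mesoderm. The log2 ratios of mesoderm over epiblast were 2.82 [2.31, 3.36], 2.51 [2.21, 2.81] and 1.53 [0.91, 2.17]. Among the named classes its highest level was in definitive endoderm in MS-LS and OB-EB, and in node and notochord in EHF at 98.7 CPM [58.5, 156], and these are epithelial classes with full Cdh1. In EHF none of the 13 pairs of neighbours in its order differed beyond the counting intervals, where its levels ran from 98.7 CPM down to 0 without such a gap.

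Fn1, which encodes the matrix protein fibronectin, had the largest number of UMIs among the mesenchymal members. In MS-LS it was at 24.4 CPM [20, 29.5] in epiblast, 145 CPM [127, 165] in primitive streak and 292 CPM [265, 320] in nascent mesoderm. Each step differed beyond the counting intervals, so the streak lay between the other classes. Epiblast and nascent mesoderm of OB-EB had 43.9 CPM [37.6, 50.9] and 301 CPM [282, 320], and caudal epiblast and its mesoderm in EHF had 58.0 CPM [45.7, 72.6] and 415 CPM [369, 464]. The log2 ratios were 3.58 [3.27, 3.90], 2.78 [2.54, 3.02] and 2.84 [2.47, 3.22]. Fn1 was not confined to mesoderm, since Exe endoderm held 98.0, 123 and 216 CPM at the 3 stages.

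Vim, the intermediate filament of mesenchymal cells, had few UMIs at the streak and bud stages and many at the headfold stage. Over all cells it was at 11.0 CPM [9.49, 12.6] in MS-LS, 11.6 CPM [9.74, 13.7] in OB-EB and 90.2 CPM [86.1, 94.4] in EHF. The EHF level was 64.9 CPM [51.8, 80.2] in caudal epiblast, though only 2.82 CPM in Exe ectoderm and 16.1 CPM in Exe endoderm. The caudal epiblast compares with 6.10 CPM [4.02, 8.88] and 5.30 CPM [3.28, 8.10] in the epiblast of MS-LS and OB-EB. Whether this difference belongs to the stage, to the classes compared or to the library cannot be told apart. Within each library, Vim was higher in mesoderm, at 24.4, 14.5 and 131 CPM, with log2 ratios of 2.0 [1.25, 2.77], 1.45 [0.68, 2.27] and 1.02 [0.58, 1.46]. Mesodermal classes differed among themselves. In OB-EB the log2 ratio of lateral plate and Exe mesoderm over nascent mesoderm was 1.42 [0.77, 2.06], while that of Fn1 was 0.11 [−0.08, 0.29] and that of Cdh2 was 0.03 [−0.23, 0.28]. In EHF Vim was at 56.7 CPM in paraxial mesoderm, under the 131 CPM of presomitic and caudal mesoderm and close to caudal epiblast, with a log2 ratio to the latter of −0.19 [−0.86, 0.43].

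Snai1 had its highest level in nascent mesoderm in MS-LS and OB-EB. In MS-LS it stood at 4.52 CPM [2.76, 6.98] in epiblast, 16.3 CPM [10.7, 23.6] in primitive streak and 67.3 CPM [54.9, 81.7] in nascent mesoderm. In OB-EB nascent mesoderm was at 47.1 CPM [40.0, 55.1] against 5.80 CPM [3.68, 8.71] in epiblast. In EHF the levels were 24.6 CPM [14.6, 38.9] in presomitic and caudal mesoderm and 7.63 CPM [3.66, 14.0] in caudal epiblast. The log2 ratios were 3.90 [3.20, 4.67], 3.02 [2.38, 3.72] and 1.69 [0.50, 2.97]. Other mesodermal classes held less of it at the bud stage. In OB-EB the log2 ratio of lateral plate and Exe mesoderm over nascent mesoderm was −1.62 [−2.49, −0.85]. Haemato-endothelial progenitors held 1 UMI, 2.84 CPM [0.0720, 15.8], in MS-LS and 5 UMIs, 3.86 CPM [1.25, 9.02], in EHF. In OB-EB they held no Snai1 UMI, which at a floor of 3 UMIs over the class (6.60 CPM) gives a log2 ratio to nascent mesoderm of −2.83. That value is set by the floor and is not a bound.

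Zeb2 was higher in mesoderm too, and in blood and vessel progenitors as well. In MS-LS it was at 2.94 CPM [1.56, 5.02] in epiblast, 19.3 CPM [13.2, 27.2] in primitive streak and 27.1 CPM [19.4, 36.7] in nascent mesoderm. The corresponding levels were 15.4 CPM [11.8, 19.8] in epiblast and 56.2 CPM [48.4, 64.9] in nascent mesoderm of OB-EB, and 22.9 CPM [15.4, 32.7] in caudal epiblast and 52.0 CPM [36.8, 71.4] in its mesoderm in EHF. The log2 ratios of 3.20 [2.27, 4.23], 1.87 [1.44, 2.31] and 1.18 [0.45, 1.92] came with an epiblast level that was higher in the later libraries. Unlike Snai1, Zeb2 had its highest level in haemato-endothelial progenitors, at 42.7 CPM [23.9, 70.3], 119 CPM [89.3, 155] and 59.5 CPM [47.0, 74.4], although only in OB-EB did this differ beyond the interval from the next class. In OB-EB its log2 ratio between these cells and nascent mesoderm was 1.08 [0.62, 1.53], in the direction opposite to Snai1.

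Zeb1 was too sparse for most statements. The MS-LS classes epiblast, primitive streak and nascent mesoderm held 1, 3 and 5 UMIs of it, or 0.226 CPM [0.00572, 1.26], 1.81 CPM [0.372, 5.28] and 3.30 CPM [1.07, 7.70]. In OB-EB, 3 UMIs in epiblast and 29 UMIs in nascent mesoderm gave 0.757 CPM [0.156, 2.21] and 8.76 CPM [5.87, 12.6], with a log2 ratio of 3.53 [1.84, 5.89]. In EHF the 5 UMIs in caudal epiblast and 9 UMIs in its mesoderm did not separate the classes, at 3.82 CPM [1.24, 8.90] and 12.3 CPM [5.63, 23.4]. No pair of neighbours in the order of its levels differed beyond the intervals in any library, at this depth.

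Counted together, members were past a 2-fold limit more often than genes in general. A gene was counted in a comparison with at least 20 UMIs over both classes, and past the limit where its level differed at least 2-fold. For nascent mesoderm over epiblast in MS-LS, 8 of 9 members had enough UMIs, and 5 were higher and 3 lower, where 5.10% of 9213 genes were higher and 10.0% were lower. In OB-EB all 9 were counted, with 6 higher and 3 lower, against 5.36% and 6.06% of 9944 genes. In EHF 5 of 8 counted members were higher and 2 lower in presomitic and caudal mesoderm than in caudal epiblast, against 4.68% and 5.39% of 7251 genes. Cldn6 was the counted member that stayed within the limit in EHF, and Zeb1 was not counted in MS-LS and EHF. The members are known switch genes, so these counts describe the classes and are no independent sign that a switch occurs.

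**Figure D2:**
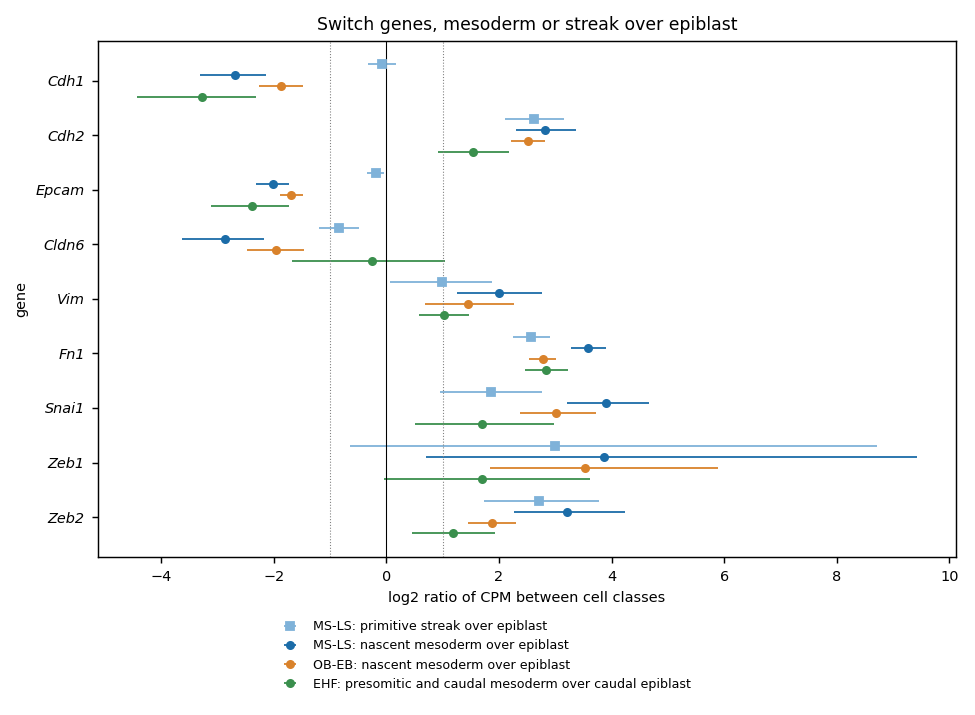
Log2 ratios of the level in mesoderm or primitive streak over epiblast (horizontal axis) for the 9 genes (vertical axis), with exact binomial 95% intervals as bars and dotted lines at a 2-fold difference. Squares show the primitive streak of MS-LS, where Cdh2, Fn1, Snai1 and Zeb2 are past the limit and Cdh1, at −0.08, is not. Zeb1 is drawn throughout but had too few UMIs to be counted outside OB-EB.

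The primitive streak class of MS-LS joined high Cdh2, Fn1, Snai1 and Zeb2 to an epiblast level of Cdh1. Over epiblast, Cdh2 had a log2 ratio of 2.62 [2.10, 3.16], Fn1 of 2.57 [2.24, 2.91], Snai1 of 1.85 [0.96, 2.76] and Zeb2 of 2.71 [1.74, 3.77]. Cdh1, in contrast, differed by −0.08 [−0.33, 0.17], Epcam by −0.19 [−0.35, −0.04] and Cldn6 by −0.84 [−1.20, −0.49]. Of 8 counted members 4 were higher and 0 lower, where 4.57% of 9322 genes were higher and 3.37% lower. Between streak and nascent mesoderm the epithelial genes differed. Cdh1 was lower with a log2 ratio of −2.62 [−3.26, −2.03], Epcam with −1.83 [−2.14, −1.53] and Cldn6 with −2.02 [−2.84, −1.27]. Snai1 was higher by a further 2.05 [1.43, 2.72] and Fn1 by 1.01 [0.78, 1.24], while Cdh2 at 0.20 [−0.20, 0.60] and Zeb2 at 0.49 [−0.21, 1.20] had intervals that hold 0. In these classes, Cdh2 and Zeb2 thus differed mainly between epiblast and streak. Cdh1 and Epcam differed mainly between streak and mesoderm. Streak cells were deeper than the others, with a median of 6711 UMIs against 4299 and 3423.5 UMIs, and the part of depth in these ratios was not tested. Classes are also not a time course of the same cells.

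The class names can move these steps. The supplement also names cells. Of 363 cells named nascent mesoderm there, 220 were in the rebuilt class and 110 in an unnamed cluster of 159 cells, which had a median of 7684 UMIs. The rebuilt class of 418 cells also held 162 cells that the study names lateral plate and Exe mesoderm. With the study's names, that mesoderm had Snai1 at 24.3 CPM and Vim at 42.3 CPM, against 83.2 and 14.1 CPM in nascent mesoderm. The rebuilt levels of MS-LS thus mix these cells. The unnamed cluster of 159 cells had more Cdh2 than the rebuilt class, 159 CPM [138, 183], with a log2 ratio of 1.15 [0.81, 1.5]. With the study's names, Cdh2 was higher in nascent mesoderm than in streak by 1.34 [1.0, 1.69], so the flat step of Cdh2 rests on the rebuilt class. Cdh1 kept its pattern under those names, with 0.08 [−0.15, 0.30] from epiblast to streak and −2.19 [−2.66, −1.75] from streak to nascent mesoderm. The rebuilt streak class held 187 of the 318 cells that the study names primitive streak. Another 105 lay in an unnamed cluster of 266 cells, with 136 study epiblast cells and a median of 3433 UMIs. After thinning cells to equal depth, a Cdh2 UMI was found in 3.40% of that cluster and 10.7% of the streak class. For Cdh1 the shares were 10.9% and 16.3%. The rebuilt streak levels thus leave out this cluster, which mixes both names. In OB-EB no rebuilt streak class was found, and the 252 cells that the study calls primitive streak were spread over the epiblast class, with 123 cells, and the nascent mesoderm class, with 126 cells. In these cells Cdh1 was at 50.1 CPM [35.3, 69.1], with a log2 ratio to the study's epiblast of −0.65 [−1.18, −0.15]. Snai1 was at 31.2 CPM [19.7, 46.7] with a ratio of 3.11 [2.07, 4.21], and Cdh2 at 84.0 CPM [64.4, 108] with 1.64 [1.16, 2.11]. Of 8 counted members 4 were higher and 1, Cldn6, was lower, where 3.00% of 8608 genes were higher and 8.59% lower. The study names at hand covered only part of the OB-EB cells. The study's epiblast of 1219 cells may be incomplete, and 913 cells of the rebuilt nascent mesoderm class had no study name.

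The headfold library held 2 further clusters of its caudal end. An unnamed cluster of 121 cells, led by Gal, Mixl1, T and Tbx6, scored almost equally as presomitic mesoderm and as caudal epiblast, and T reached 640 CPM [579, 705] in it. Cdh1 was at 50 CPM [34.2, 70.7] there, between 120 CPM in caudal epiblast and 12.3 CPM in presomitic and caudal mesoderm, and Snai1 was at 40.7 CPM [26.6, 59.6]. Over caudal epiblast the log2 ratios were −1.26 [−1.86, −0.70] for Cdh1, 2.41 [1.31, 3.63] for Snai1, 1.19 [0.50, 1.88] for Cdh2 and 1.42 [0.97, 1.87] for Fn1. A further unnamed cluster of 154 cells, led by Mesp1, Evx1os and Cdx4, had 609 CPM [560, 660] of Fn1 and 13.6 CPM [7.22, 23.2] of Cdh1. Against the first cluster, Cdh1 was lower with a log2 ratio of −1.88 [−2.94, −0.91] and Fn1 higher with 1.98 [1.67, 2.30], while Snai1 at 0.27 [−0.45, 1.02] did not differ beyond the counting interval.

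Definitive endoderm is the other layer that leaves the streak. By level it had more Cdh1, Epcam and Cldn6 and less Fn1, Snai1 and Zeb2 than nascent mesoderm in MS-LS and OB-EB. The ratios below are over epiblast or caudal epiblast, and none over mesoderm was taken. Definitive endoderm kept Cdh1 at 97.1 CPM [77.0, 121] in MS-LS, 102 CPM [80.6, 128] in OB-EB and 157 CPM [121, 199] in EHF. It had Cdh2 at 137 CPM [113, 165], 195 CPM [165, 230] and 49.1 CPM [30.4, 75.0]. Both cadherins were therefore high in this class in MS-LS and OB-EB, with log2 ratios over epiblast of −0.25 [−0.61, 0.09] for Cdh1 and 3.75 [3.24, 4.29] for Cdh2 in MS-LS, and of 0.43 [0.05, 0.80] and 2.77 [2.41, 3.14] in OB-EB. In EHF the ratios over caudal epiblast were 0.39 [−0.05, 0.81] for Cdh1 and 0.84 [−0.01, 1.65] for Cdh2, so neither differed beyond its interval there. Snai1 was near the epiblast level, with 5 UMIs (6.07 CPM) in MS-LS and 3 UMIs (4.04 CPM) in OB-EB. Zeb2 had no UMI in the 155 endoderm cells of MS-LS, which allows up to 3.64 CPM at a floor of 3 UMIs, and 6.73 CPM [2.18, 15.7] in OB-EB. In MS-LS 2 of 7 counted members, Cdh2 and Fn1, were higher and 0 were lower than in epiblast, against 5.48% and 8.90% of 8912 genes. In OB-EB 3 of 8, Cdh2, Cldn6 and Fn1, were higher and 1, Zeb2, was lower, against 8.71% and 7.11% of 8916 genes. The interval for Zeb2 held 0, at −1.19 [−2.87, 0.11]. In EHF 3 of 7, Epcam, Cldn6 and Fn1, were higher than in caudal epiblast and 0 lower, against 8.80% and 9.15% of 6876 genes.

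Node and notochord, an epithelial class that expresses T strongly, also joined the cadherins. Over the epiblast or caudal epiblast of its library, Cdh2 had log2 ratios of 3.27 [2.41, 4.07], 2.23 [1.45, 2.94] and 1.85 [0.94, 2.70], while Cdh1 had 0.04 [−0.64, 0.64], 0.27 [−0.65, 1.07] and 0.60 [0.01, 1.14]. These classes are small, with 58, 53 and 45 cells, and Snai1 had 0, 0 and 3 UMIs in them. At this depth a floor of 3 UMIs allows up to 15.5 CPM in MS-LS and 21.2 CPM in OB-EB, so the absence of Snai1 could not be shown.

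Parietal endoderm of EHF, an extraembryonic tissue known to arise from an epithelium by its own switch, had the highest Snai1 level of the named classes of the 3 libraries. Its 65 cells held 48 UMIs of Snai1, 260 CPM [191, 344], against 2.68 CPM [0.984, 5.84] in the 333 cells of Exe endoderm, a log2 ratio of 6.60 [5.37, 8.11]. Cdh1 was at 5.41 CPM [0.137, 30.1] from 1 UMI, Vim at 114 CPM [70.3, 174], and Epcam at 97.3 CPM [57.7, 154]. Cdh2 and Zeb2 had no UMI, which allows up to 16.2 CPM of each, and Fn1 had 2 UMIs, 10.8 CPM [1.31, 39.1]. High Snai1 and low Cdh1 thus occurred there without the Cdh2 and Fn1 levels of mesoderm, in a class with a median of 2745 UMIs per cell.

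Cells with a UMI of T or of Mesp1 were compared next, since Mesp1 marks the earliest mesoderm. Detection favours deep cells, and the medians were 5170, 3261.5 and 5716 UMIs for the 469, 664 and 674 T-positive cells and 4943.5, 2890.5 and 5662 UMIs for the 568, 834 and 273 Mesp1-positive cells. Shares of cells were therefore taken after thinning each cell to 1500 UMIs, which left out 4, 27 and 11 T-positive and 5, 44 and 6 Mesp1-positive cells below that depth. In MS-LS 23.9% of T-positive cells were in the primitive streak class and 17.7% in nascent mesoderm, and 10.0% lay in Exe ectoderm, so the selection was not pure. In OB-EB 21.2% of T-positive and 11.4% of Mesp1-positive cells were in epiblast. In EHF 22.8% and 3.66% were in caudal epiblast, and 6.68% and 0% in node and notochord. The groups compared below thus differ in their classes, and the part of this in the ratios was not tested.

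By level, Cdh1 was lower and Cdh2 higher in cells with Mesp1 than in cells with T alone, in each library. Summed over the cells with T only, with both, and with Mesp1 only, Cdh1 was at 112, 70.0 and 57.8 CPM in MS-LS, 71.0, 33.5 and 19.7 CPM in OB-EB and 85.2, 31.7 and 14.5 CPM in EHF. Cdh2 was at 51.1, 104 and 91.9 CPM in MS-LS, 95.9, 163 and 148 CPM in OB-EB and 50.2, 84.4 and 88.3 CPM in EHF. Between cells with T only and cells with Mesp1 only, Cdh1 had log2 ratios of −0.95 [−1.31, −0.60], −1.85 [−2.46, −1.27] and −2.55 [−3.48, −1.75], and Cdh2 had 0.85 [0.46, 1.25], 0.63 [0.32, 0.94] and 0.81 [0.41, 1.21]. Between cells with both and cells with Mesp1 only, Cdh2 did not differ beyond its interval, at −0.18 [−0.50, 0.14], −0.14 [−0.42, 0.14] and 0.06 [−0.41, 0.55]. Cdh1 was lower again in OB-EB and EHF, at −0.77 [−1.48, −0.07] and −1.12 [−2.20, −0.12], and in MS-LS it was −0.28 [−0.68, 0.13]. Snai1 was higher in Mesp1-only than in T-only cells, by 1.64 [1.01, 2.32], 0.96 [0.31, 1.63] and 1.10 [0.46, 1.72], and Fn1 by 1.27 [1.02, 1.54], 0.52 [0.29, 0.75] and 1.12 [0.93, 1.30].

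Shares of cells were read after thinning. A Cdh1 UMI was found in 10.1% of T-only, 6.60% of double and 5.74% of Mesp1-only cells of MS-LS, in 9.07%, 4.58% and 3.22% of those of OB-EB and in 11.0%, 5.93% and 2.68% of those of EHF. A Cdh2 UMI was found in 9.33%, 14.2% and 11.5%, in 13.9%, 17.6% and 19.7%, and in 6.79%, 11.0% and 9.40%. As a background, haemato-endothelial progenitors, with medians of 4544.5, 2756 and 5487 UMIs, had a Cdh1 UMI in 1.45%, 2.24% and 1.36% of cells, and Exe ectoderm, with 4832, 3034.5 and 6933 UMIs, had a Cdh2 UMI in 0.943%, 2.15% and 0.202%. The Cdh2 shares lay above this background in each library. Between T-only and Mesp1-only cells the thinned intervals of Cdh2 overlapped in all 3 libraries, and those of Cdh1 overlapped in MS-LS. With all UMIs, Cdh1 was found in 31.1%, 30.2% and 17.3% of T-only, double and Mesp1-only cells of MS-LS, in 17.1%, 12.4% and 5.11% of those of OB-EB and in 34.2%, 15.3% and 7.74% of those of EHF. Cdh2 was found in 22.6%, 41.7% and 31.7%, in 23.4%, 41.0% and 32.4%, and in 24.1%, 45.8% and 37.4%. Double cells were the deepest, with medians of 6287, 3705 and 6615.5 UMIs against 4645, 3025.5 and 5619 UMIs for T-only and 4490, 2639 and 5158 UMIs for Mesp1-only cells, and in MS-LS their Cdh1 share with all UMIs was close to that of T-only cells. No order of Cdh2 between double and Mesp1-only cells was read from these shares. The background with all UMIs was 2.86%, 2.80% and 4.52% for Cdh1 and 2.24%, 3.69% and 1.95% for Cdh2. The Cdh1 share of Mesp1-only cells of OB-EB had an interval of 1.89% to 5.11% and that of EHF one of 0.736% to 6.73%, and both held the background value.

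**Figure D3:**
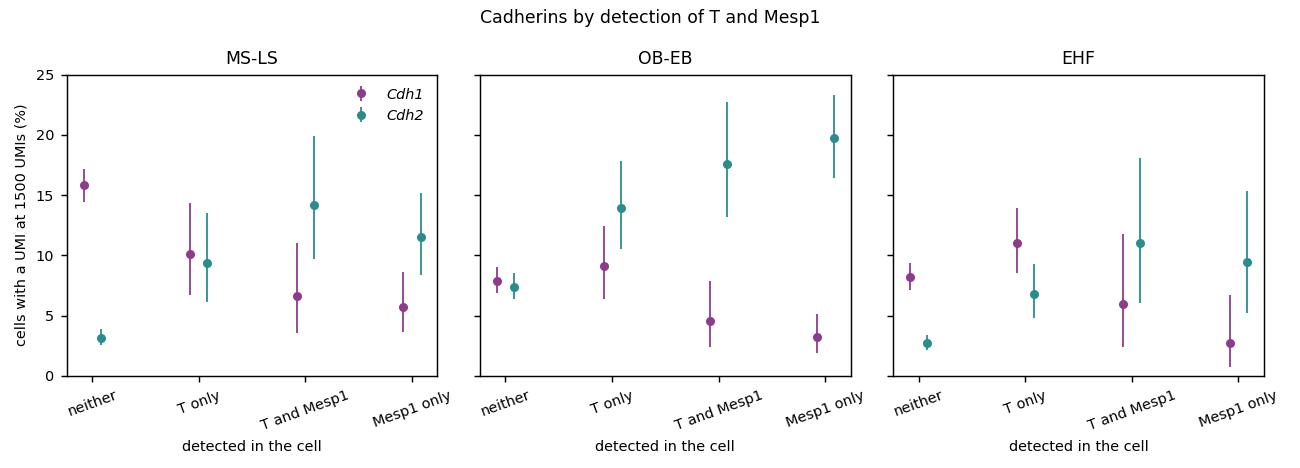
Share of cells with a UMI of Cdh1 or Cdh2 after thinning to 1500 UMIs (vertical axis, percent) by detection of T and Mesp1 (horizontal axis), 1 panel per library, with exact binomial 95% intervals as bars. Between T-only and Mesp1-only cells the Cdh1 intervals do not overlap in EHF, at 11.0% and 2.68%, and in OB-EB, and overlap in MS-LS, while those of Cdh2 overlap in all 3 libraries.

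Both cadherins were seldom detected in the same cell, and about as often as their single shares predict. After thinning, 6 of 465 T-positive cells of MS-LS held both, 1.29% [0.475, 2.79], where the product of the single shares was 0.980%. In OB-EB these were 7 of 637, 1.10% [0.443, 2.25], against 1.11%, and in EHF 2 of 663, 0.302% [0.0366, 1.09], against 0.762%. Among Mesp1-positive cells they were 2 of 563, 0.355% [0.0431, 1.28], against 0.751% in MS-LS, and 7 of 790, 0.886% [0.357, 1.82], against 0.697% in OB-EB. In EHF 0 of 267 cells held both, which allows a share of up to 1.12% at 3 cells, against a product of 0.417%. The intervals of these 6 shares all held the product. At 1500 UMIs per cell, an excess or a lack of double cells was thus not detectable.

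At full depth more double cells were seen. They made up 11.9% [9.15, 15.2] of T-positive cells in MS-LS, 4.97% [3.45, 6.91] in OB-EB and 5.93% [4.27, 7.99] in EHF, where the products were 9.43%, 4.63% and 8.61%. Among Mesp1-positive cells they made up 8.10% [5.99, 10.7], 2.52% [1.57, 3.82] and 2.20% [0.811, 4.72], with products of 7.69%, 2.61% and 4.51%. The T-positive cells of EHF held fewer double cells than the product, beyond the counting interval, and the other 5 shares held the product in their intervals. T-positive cells of EHF pool several classes. Within caudal epiblast 9.09% [5.06, 14.8] of them were double against a product of 8.85%, and within the unnamed cluster of 121 cells 8.93% [4.36, 15.8] against 6.38%. In node and notochord the share was 8.89% [2.48, 21.2] against 13.0%, and in presomitic and caudal mesoderm 2.47% against 3.54%. In the unnamed cluster of 154 cells, 0 of 83 T-positive cells were double against 4.06%. All of these shares held the product in their intervals. Over all 154 cells of that cluster the share was 0% [0, 2.37] against a product of 3.12%, which lies beyond the interval. Depth differs between cells at this setting, and its part was not tested.

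**Figure D4:**
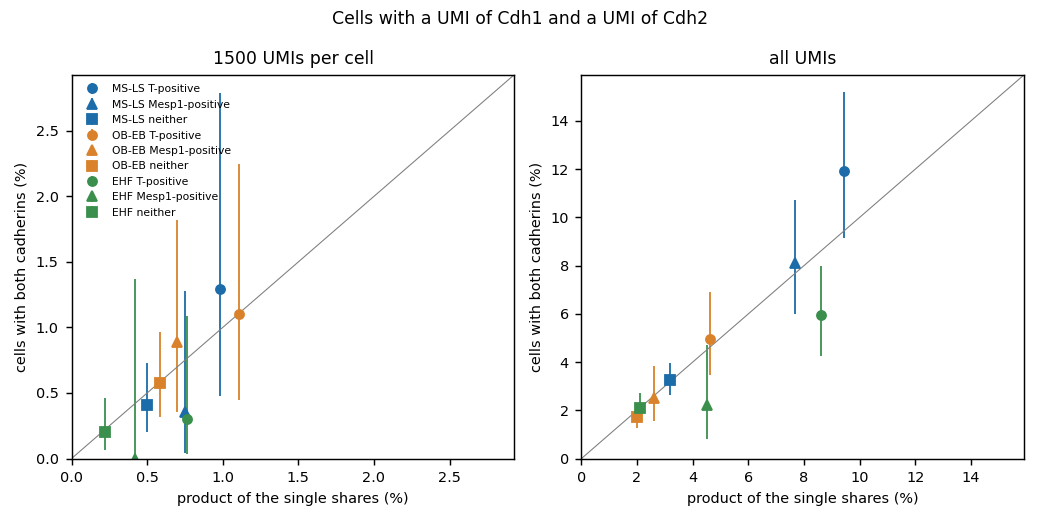
Share of cells with a UMI of both cadherins (vertical axis, percent) against the product of the single shares (horizontal axis, percent), thinned to 1500 UMIs (left) and with all UMIs (right), for T-positive, Mesp1-positive and other cells of each library, with exact binomial 95% intervals as bars and a line of equality. T-positive cells of EHF with all UMIs lie under the line, at 5.93% against 8.61%.

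Shares of double cells were also taken by class. Of the 215 streak cells of MS-LS, 44 held both cadherins at full depth, 20.5% [15.3, 26.5], against a product of 16.7%, and of its 112 T-positive cells 31 did, 27.7% [19.6, 36.9], against 23.9%. After thinning the class held 4 double cells, 1.86% [0.509, 4.69], against 1.74%. In epiblast 2.09% [1.26, 3.24] of cells were double at full depth and in nascent mesoderm 0.957% [0.261, 2.43]. These classes had medians of 4299 and 3423.5 UMIs against 6711 UMIs in the streak, and after thinning their shares were 0.110% [0.00280, 0.614] and 0.242% [0.00613, 1.34]. The thinned interval of the streak overlapped both. Definitive endoderm held 25 double cells of 155 in MS-LS, 16.1% [10.7, 22.9], and 26 of 221 in OB-EB, 11.8% [7.83, 16.8], with products of 15% and 11%. After thinning these shares were 1.30% [0.158, 4.61] and 1.98% [0.542, 4.99], with products of 1.71% and 3.48%.

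Cells with a Snai1 UMI were fewer, 230, 196 and 270 in the 3 libraries. They held Cdh1 at 72.3 CPM [58.8, 88.1], 31.1 CPM [19.7, 46.6] and 45.5 CPM [36.1, 56.6], where the other cells held 118, 55.9 and 64.8 CPM. They held Cdh2 at 89.9 CPM [74.7, 107], 178 CPM [149, 211] and 46.6 CPM [37.1, 57.8], where the other cells held 35.1, 78.4 and 26.2 CPM. Cdh1 was thus lower, though detected, in cells with Snai1, over cells of every class together. These cells were deeper, with medians of 4869, 3147.5 and 6072.5 UMIs against 4205, 2588 and 5548 UMIs.

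Other genes of the process were taken from lists of 32 epithelial, 36 mesenchymal and 13 gastrulation genes, of which 31, 33 to 35 and 13 were in the tables. Among the epithelial genes counted for nascent mesoderm over epiblast in MS-LS, 14 of 26 were lower and 2 higher, where 10.0% of all genes were lower and 5.10% higher, with a median log2 ratio of −1.08 beside −0.04 over all 9213 genes. In OB-EB 9 of 22 were lower and 2 higher, against 6.06% and 5.36%, with a median of −0.84. For presomitic and caudal mesoderm in EHF 7 of 14 were lower and 1 higher, against 5.39% and 4.68%, with a median of −0.98. The lowest ratios in MS-LS were those of Rab25, a small GTPase of epithelial vesicle traffic, at −3.72 [−5.36, −2.47], and Ovol2, a zinc finger factor that maintains epithelia, at −3.54 [−8.89, −0.97] with 1 UMI in mesoderm. Rab25 was also lower in OB-EB, at −1.83 [−2.48, −1.22], and in EHF, at −4.25 [−9.59, −1.67] with 1 UMI. The higher genes were Dsp, the desmosomal plaque protein desmoplakin, at 2.58 [1.76, 3.46], and Krt8, an intermediate filament of simple epithelia, at 2.06 [1.62, 2.50]. Dsp was higher at the other stages too, at 1.74 [1.19, 2.31] and 1.06 [0.23, 1.91], and Krt8 was at 1.01 [0.58, 1.44] in OB-EB and at −0.42 [−1.11, 0.24] in EHF. These 2 epithelial genes thus ran against their list in the first mesoderm.

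Of the mesenchymal list, about as many counted genes were past the limit as within it in MS-LS and OB-EB, and no counted gene was at least 2-fold lower. In MS-LS 10 of 18 counted genes were higher, where 5.10% of all genes were, with a median log2 ratio of 2.35. In OB-EB 12 of 22 were higher, against 5.36%, with a median of 1.28 beside 0.02 over all genes, and in EHF 5 of 14, namely Cdh11, Pcdh19, Mmp14, Acta2 and Pdgfra, were higher, against 4.68%, with a median of 0.45 beside −0.02. Lgals1, which encodes a galectin, was at −0.55 [−1.0, −0.12] in EHF. The largest ratios in MS-LS were those of the cell adhesion genes Pcdh19, a protocadherin, at 4.66 [2.96, 7.03] from 26 and 3 UMIs, and Cdh11, a cadherin of mesenchyme, at 4.59 [3.69, 5.65]. Pcdh19 stood at 4.13 [3.32, 5.06] in OB-EB and 4.70 [3.92, 5.60] in EHF, and Cdh11 at 3.79 [3.12, 4.55] and 2.26 [0.83, 3.90]. Their ratios were larger than that of Cdh2 in all 3 comparisons, but the intervals of Pcdh19 in MS-LS and of Cdh11 in EHF overlapped that of Cdh2. The smallest ratios in MS-LS were those of Tcf4, an E-protein transcription factor, at −0.41 [−1.02, 0.16], and Itgav, an integrin subunit, at −0.04 [−1.07, 0.90].

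The gastrulation list was written from general knowledge of genes linked to the passage of cells through the streak. The few of its genes past the limit were near the share of all genes. In MS-LS 1 of 11 counted genes was lower and 0 were higher, which is near the 10.0% and 5.10% of all genes, with a median log2 ratio of 0.07. In OB-EB and EHF 1 of 11 was higher and 0 lower, with medians of 0.17 and 0.02. There 5.36% and 4.68% of all genes were higher and 6.06% and 5.39% lower. These counts do not set the list apart from genes in general. The lower gene was Nodal, the ligand that induces mesoderm, at −1.45 [−2.97, −0.23], followed by Arhgef2 at −0.94 [−1.70, −0.24]. The largest ratios were those of Smad2, a transducer of Nodal, at 0.71 [0.13, 1.26], and Map4k4, a kinase, at 0.59 [0.18, 1.0]. The higher gene of OB-EB was Fgf4, a ligand of the streak, at 2.11 [1.07, 3.28], and that of EHF was the receptor Fgfr1, at 1.16 [0.78, 1.54].

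**Figure D5:**
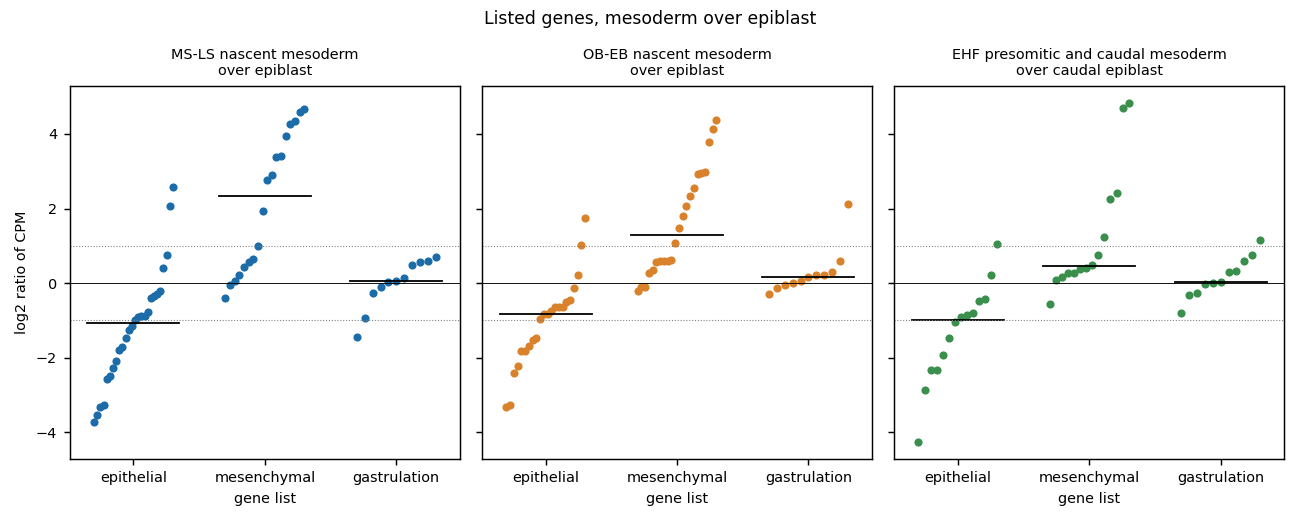
Log2 ratios of the counted genes of the epithelial, mesenchymal and gastrulation lists (vertical axis) for mesoderm over epiblast, 1 panel per library, with 1 point per gene, black lines at the medians and dotted lines at a 2-fold difference. Medians are −1.08, 2.35 and 0.07 in MS-LS, −0.84, 1.28 and 0.17 in OB-EB and −0.98, 0.45 and 0.02 in EHF.

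Genes with the most similar pattern were sought over the 30 named classes of at least 30 cells, by the Pearson correlation of log2(CPM + 10) among 8773 genes. The points share 3 libraries and their depth, so the values describe likeness only. Cdh1 was closest to Spint2, a protease inhibitor of epithelia, with 0.94, to Epcam with 0.91 and to Ap1m2, an epithelial sorting adaptor, with 0.90. Epcam was closest to Cdh1, to Esrp1, an epithelial splicing factor, with 0.88, and to Ap1m2 with 0.84. Cldn6 was closest to Cldn7, another claudin, with 0.94, to the polarity gene Crb3 with 0.93 and to Ap1m2 with 0.89. The 3 epithelial members thus shared Ap1m2 among their nearest genes.

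The mesenchymal members did not form such a group. Cdh2 was closest to Lhx1, a LIM homeobox gene, with 0.84, to the protocadherin Pcdh7 with 0.82 and to Cirbp with 0.82, and it correlated with Cdh1 at −0.08 and with Fn1 at 0.38. Vim was closest to Gnas, with 0.83, to Fkbp10, with 0.82, and to Arl2bp, with 0.79. Fn1 was closest to Zeb2 and Prtg, both with 0.78, and to Rasgrp3 with 0.76. Among the factors, Snai1 was closest to Bmper with 0.82, Arl4d with 0.79 and Ext1 with 0.73, and it correlated with Zeb2 at 0.06 only. Zeb2 was closest to Sall3 with 0.85, Vcan with 0.80 and Rspo3 with 0.79, and Zeb1, itself under the minimum of 200 UMIs set for the other genes, was closest to Hoxb2 with 0.82, Vcan with 0.79 and Zeb2 with 0.78. Among the members other than Zeb1, the most opposed pair was Epcam and Zeb2 at −0.77.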

How the data were processed

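Chromium 3′ libraries were sequenced on a HiSeq4000. The authors aligned reads to GRCm38 and counted UMIs with Cell Ranger 3.0.2, filtered cells and deposited the counts per gene and cell without normalization, and the submitters' notes also name R 3.6.1 and Seurat 3. A second EHF table held the same counts and barcodes, with 21 gene names that differ because symbols had become calendar dates, and it was counted once. The members and lists were chosen with earlier results of these data known. All deposited cells were used. A limit of the mean plus 3 SD on mitochondrial counts would leave 3603, 3953 and 3449 cells.

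Each library was clustered with Seurat 5.3.0 in R 4.3.3 (2000 variable genes without members and listed genes, 50 principal components, resolution 2 and, for EHF, 4.5). A cluster was named from the best of 22 marker sets if at least 3 markers had a UMI in 10% of its cells and a 2-fold higher level and its score led by 0.1, unless markers of another type outnumbered its own among its leading genes. In EHF, 2 clusters of 131 and 160 cells scored highest as epiblast but were left unnamed, because neural plate genes led them. The limits and this step were set after cluster names were seen. Doublets were kept, since the automatic limit of Scrublet (scanpy 1.11.5) marked 6, 0 and 13 cells, and an alternative dropped the top 5% by score, 182, 200 and 175 cells. UMIs were summed per class. Intervals are exact (scipy 1.17.1, Python 3.11.15) and cover counting error only, and ratios against 0 use a floor of 3 UMIs. No test was run, since each stage is 1 library. The steps were tested on simulated data. Named genes are the 9 members, T and Mesp1, the 3 most similar genes of each member, and the 2 largest and 2 smallest ratios of each list in MS-LS. Fgf4, Fgfr1, Mmp14, Acta2, Pdgfra, Lgals1, Gal, Mixl1, Tbx6, Evx1os and Cdx4 were named after their values were seen.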

Additional observations from a re-analysis of the deposited data

How the results depend on the processing

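No paired analysis was possible because each stage is 1 library. Classes rebuilt from markers, counting depth and single libraries limit every value above. Of 216 member ratios recomputed under the alternatives, 195 stayed within their counting interval, 21 moved and 0 changed sign. Class boundaries moved them most: in MS-LS the study's names gave 3.66 for Cdh2, −2.12 for Cdh1 and 1.05 for Vim, and the lower resolution 2.19 for Cdh2, 2.51 for Fn1, 2.96 for Snai1 and 1.88 for Zeb2. In OB-EB the lower and higher resolution gave −3.43 and −3.68 for Cdh1, and the higher gave 4.32 for Snai1. Of 168 counts 153 stayed within 1.5 times, among them every count of members, and of 48 shares 28 stayed within their interval and 20 moved. The study's names were not run for OB-EB mesoderm and for EHF, nor the lower resolution for EHF, where no such class was found. The causes below were not tested unless the alternative changes how many genes are counted.

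In MS-LS, the study's names gave 1 lower mesenchymal gene in place of 0. A minimum of 50 UMIs, which counts fewer genes, gave 8 lower epithelial and 4 higher mesenchymal genes in MS-LS, 5 lower epithelial genes in OB-EB, and 2 lower epithelial and 2 higher mesenchymal genes in EHF. A minimum of 1 UMI, which counts more, gave 17 higher mesenchymal genes in MS-LS and 2 higher epithelial, 11 higher and 1 lower mesenchymal genes in EHF. The number of genes counted and the share of all genes past the limit change with the minimum too. They are not given here, so these counts do not show a stronger or weaker list. Epithelial genes higher in OB-EB were 1 in place of 2 with the lower resolution, with the gene set allowed among the variable genes, with at least 2000 UMIs per cell and with median of ratios scaling. The higher resolution gave 1 lower mesenchymal gene in EHF. Median of ratios scaling shifts the median of all genes by 0.02 to 0.03 on the log2 scale.

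Shares of cells with both cadherins depend on depth. At full depth they were 11.9%, 4.97% and 5.93% of T-positive and 8.10%, 2.52% and 2.20% of Mesp1-positive cells. At 3500 UMIs they were 3.36%, 4.33% and 2.81%, and 2.12%, 2.98% and 1.75%. At 2000 UMIs the T-positive share of EHF was 1.24%. With at least 2 UMIs of each cadherin the share was 0 in every group, and in the Mesp1-positive cells of EHF it had been 0 before. With at least 2 UMIs of Mesp1 it was 0 in OB-EB, and in streak and mesoderm classes only it was 0 among T-positive cells of EHF. At 1500 UMIs few molecules of a cadherin are left in a cell, so a share near 1% rests on 2 to 7 cells, and EHF Mesp1-positive cells gave 0.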
